A study of Mus musculus with 12 samples.

Results

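BALB/c iNKT17 cells were compared with BALB/c ROR- cells on 6 Affymetrix whole-transcript arrays, 3 for each group, out of 12 in the series. The arrays were chosen by their labels alone, and each carried RNA of 1 sample. Both groups came from mice of the BALB/c strain, and the labels name the cell phenotype as iNKT17 or as ROR-; what ROR- stands for is not spelled out there. No mutant allele, transgene or agent is named for either group. The labels state that growth and treatment conditions do not apply, describe the source of the total RNA as frozen tissue, and name an RNeasy extraction. The labels leave out organ, age, sort gates and the antigen receptor of the ROR- cells. Replicates carry numbers, but nothing says that they came from separate animals, so a p-value reflects how far these samples scatter, in part perhaps technically. The other 6 arrays were of B6 mice, 2 each of iNKT17, ROR- and gamma-delta 17 cells, and entered the estimate of the spread.

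T cells of the invariant natural killer T (iNKT) lineage use a nearly fixed alpha-beta receptor to recognise lipids shown by the molecule CD1d. Their subsets are told apart by transcription factors and cytokines, with interleukin 17 marking iNKT17 cells, T-bet and interferon gamma the type 1 subset, and GATA3 and interleukin 4 the type 2 subset. Type 17 cells respond to interleukin 23 and interleukin 1, while type 1 cells carry many receptors and granule proteins that they share with natural killer (NK) cells.

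Values are the submitters' log2 expression values, and a difference of 1 is a 2-fold change on that scale. Differences are BALB/c iNKT17 minus BALB/c ROR-, with their standard error (SE) from limma, and adjusted p-values are limma's after Benjamini-Hochberg adjustment over all 16667 genes tested, with a threshold of 0.05. At that threshold 1161 genes passed (6.97%), 676 higher in iNKT17 cells (4.06%) and 485 lower (2.91%). Among them, 478 genes (2.87%) differed by at least 2-fold, 259 higher (1.55%) and 219 lower (1.31%). The 3 arrays of 1 group lay wholly above those of the other for 3703 genes (22.2%), 2021 higher in iNKT17 cells (12.1%) and 1682 lower (10.1%); after centring every array on its median the split was 2431 and 1324. When each of the 6 arrays was left out in turn, 644 genes passed in all 6 fits as well. Markers followed the labels: Il23r, Il1r1 and Ccr6 were higher on every iNKT17 array than on any ROR- array, and Tbx21, which encodes T-bet, was lower. Zbtb16, which encodes the iNKT factor PLZF, read 9.27, 9.14 and 8.89 on the ROR- arrays and 8.89, 9.01 and 9.07 on the iNKT17 arrays. That level was high in both groups, and the difference of -0.11 ± 0.16 did not pass (adjusted p = 0.801). In bulk RNA, fewer cells of a type and less RNA per cell cannot be told apart, and this holds for every result here. Correlations between arrays of a group across genes ran from 0.977 to 0.981 in ROR- cells and from 0.979 to 0.990 in iNKT17 cells.

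**Figure D1:**
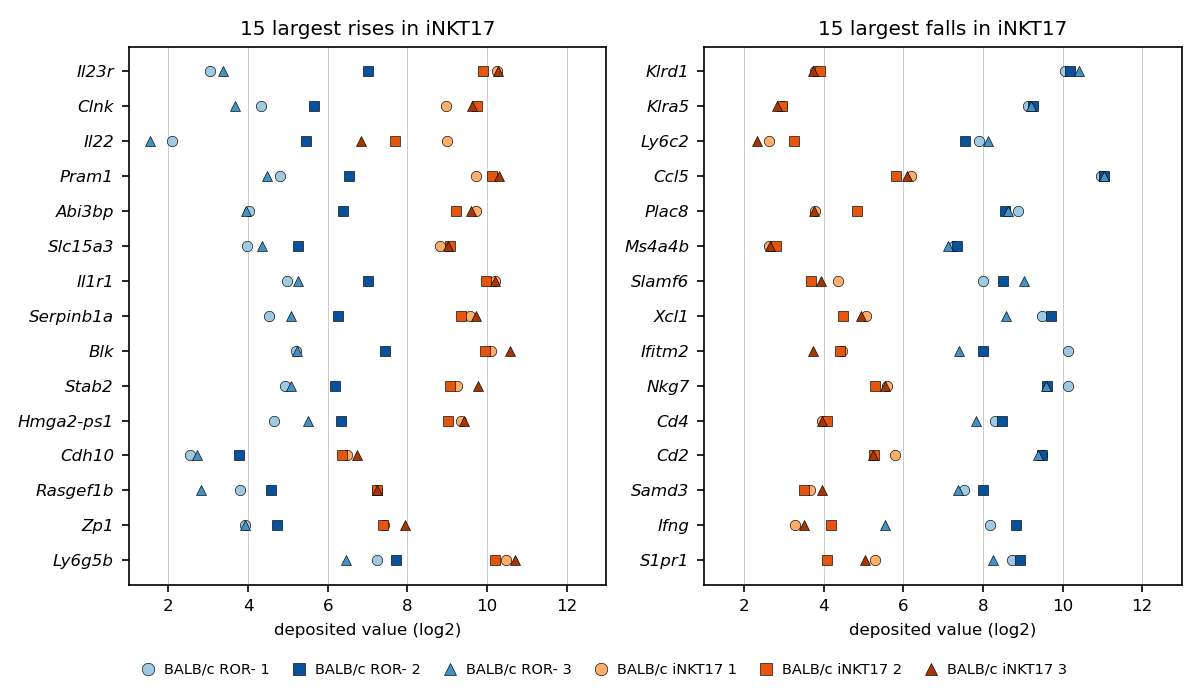
Deposited values (log2, horizontal axis) of the 15 genes with the largest rises and the 15 with the largest falls in BALB/c iNKT17 cells, 1 point per array, leaving out predicted, clone-named and olfactory receptor genes (Olfr60 among the rises and BE692007 among the falls). Blue points are the 3 ROR- arrays and orange points the 3 iNKT17 arrays; no gene shown has overlapping groups, which was a condition of the choice, and the dark blue squares of ROR- 2 lie to the right of the other ROR- points in every row of the left panel.

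Receptors of the type 17 program were among the highest rises in iNKT17 cells. Il23r, the receptor chain for interleukin 23, read 3.05, 7.0 and 3.37 on the ROR- arrays and 10.25, 9.89 and 10.27 on the iNKT17 arrays. It rose by 5.66 ± 0.77 (adjusted p = 7.37e-04), although ROR- 2 lay well above the other ROR- arrays. Il1r1, the signalling receptor for interleukin 1, read 4.97, 7.0 and 5.25 against 10.19, 9.99 and 10.20. Its rise was 4.38 ± 0.40 (adjusted p = 4.06e-05), and again ROR- 2 was the highest of its group without reaching the iNKT17 arrays. Il17re, a receptor chain for interleukin 17C, read 4.56, 4.59 and 4.85 against 6.48, 6.72 and 6.78. It rose by 1.99 ± 0.15 (adjusted p = 1.14e-05), with ROR- 2 level with ROR- 1. Ccr6, the chemokine receptor for CCL20, read 4.52, 4.26 and 4.37 against 6.08, 6.41 and 7.08, a rise of 2.14 ± 0.25 (adjusted p = 2.41e-04). Here ROR- 2 was the lowest array of all. Among the receptors of the list, 6 of 13 rose and 2 fell.

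The promoters of Il23r and Ccr6 are shown because both genes rose and both windows hold a match to the ROR response element searched for, NNTAGGTCA on either strand. Sequences are from RefSeq on build GRCm38.p6, are written in the direction of the gene and end at the base before its annotated start. Capitals mark the match, which lies 69 bases before the start in Il23r and 44 bases before the start, on the opposite strand, in Ccr6.
Il23r (chr6:67491856-67492105, minus strand): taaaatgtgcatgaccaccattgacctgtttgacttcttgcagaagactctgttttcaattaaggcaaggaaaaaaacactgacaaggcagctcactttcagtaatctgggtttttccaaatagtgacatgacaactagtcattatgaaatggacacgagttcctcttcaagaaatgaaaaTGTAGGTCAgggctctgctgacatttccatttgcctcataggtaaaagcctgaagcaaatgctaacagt
Ccr6 (chr17:8235793-8236042, plus strand): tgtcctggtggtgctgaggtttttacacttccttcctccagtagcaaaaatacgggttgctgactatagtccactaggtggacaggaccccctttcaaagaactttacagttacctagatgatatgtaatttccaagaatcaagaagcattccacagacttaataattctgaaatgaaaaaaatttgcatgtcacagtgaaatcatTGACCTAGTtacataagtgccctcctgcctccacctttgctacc
The windows counted for these shares run on past the start, beyond the sequences printed, so a counted match need not lie before the start. Over all promoter windows in the table, 849 of 32851 (2.58%) held this motif. In the type 17 list, where 44 of the 51 genes had a window, it was found in 3 of 59 windows (5.08%), that of S100a4 being the other one. The type 1 list, which moved the other way, held it in 3 of 41 windows (7.32%) and the 15 largest falls in 1 of 12 (8.33%). A match describes the letters of the window and does not show binding.

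Cytokine genes of the type 17 program split. Il22, a cytokine that acts on epithelia, read 2.08, 5.46 and 1.55 on the ROR- arrays and 8.98, 7.70 and 6.84 on the iNKT17 arrays. The groups did not overlap and the rise was 4.81 ± 0.87 (adjusted p = 0.00495), but the ROR- mean of 3.03 lay below the dim level of 3.45, so the size is uncertain. Il17a, the cytokine that names the subset, read 3.67, 3.79 and 3.62 against 6.01, 5.66 and 4.33. Its difference of 1.64 ± 0.38 passed (adjusted p = 0.0223), with iNKT17 3 much closer to the ROR- arrays than the other iNKT17 arrays. The call was lost without ROR- 1 (adjusted p = 0.0550), ROR- 2 (0.0522), ROR- 3 (0.0782), iNKT17 1 (0.0878) or iNKT17 2 (0.0840). Il17f, the neighbouring gene for a related cytokine, read 4.25, 4.48 and 4.31 against 4.12, 5.0 and 4.42 and did not pass (0.16 ± 0.31, adjusted p = 0.850). Csf2, which encodes the growth factor GM-CSF, read 5.38, 6.13 and 5.57 against 7.40, 6.88 and 7.41 and rose by 1.54 ± 0.31 (adjusted p = 0.00953). Of the 9 cytokine genes in the list, 4 rose and none fell, and 2 of the 4 kept the call whichever array was left out.

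Among the type 17 regulators 6 of 14 rose and 1 fell. Maf, a transcription factor needed by type 17 T cells, read 9.61, 9.98 and 8.53 on the ROR- arrays and 11.24, 11.25 and 11.39 on the iNKT17 arrays. It rose by 1.92 ± 0.33 (adjusted p = 0.00404), with close agreement inside the iNKT17 group and a wider ROR- group. Ahr, the aryl hydrocarbon receptor, which promotes Il22, rose by 1.30 ± 0.25 (adjusted p = 0.00669). Runx1 rose by 0.84 ± 0.13 (adjusted p = 0.0018). The circadian repressor gene Nr1d1 rose by 1.32 ± 0.23 (adjusted p = 0.00405). Rora, which encodes the nuclear receptor ROR-alpha, read between 6.21 and 6.32 in ROR- cells and between 6.31 and 6.49 in iNKT17 cells and did not pass (0.16 ± 0.12, adjusted p = 0.554). The regulator that fell was Nfkbiz (-0.66 ± 0.16, adjusted p = 0.0277), a call lost without ROR- 1 (0.0832) or any 1 iNKT17 array (0.0693 to 0.0938).

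Surface and other type 17 genes gave the highest share, with 11 of 15 higher and none lower. Serpinb1a, an inhibitor of neutrophil proteases, read 4.53, 6.26 and 5.08 on the ROR- arrays and 9.58, 9.34 and 9.73 on the iNKT17 arrays, a rise of 4.26 ± 0.38 (adjusted p = 3.21e-05). Ly6g5b, a gene of the Ly6 family, read 7.25, 7.72 and 6.47 against 10.48, 10.20 and 10.71 and rose by 3.32 ± 0.30 (adjusted p = 3.46e-05). Sdc1, the syndecan used as a marker of iNKT17 cells, read 5.89, 8.05 and 7.49 against 10.01, 8.73 and 9.81. Its rise of 2.37 ± 0.46 (adjusted p = 0.00761) came with a wide ROR- group, in which ROR- 1 was lowest. Tmem176b, an ion channel-like gene found in type 17 cells, rose by 2.58 ± 0.29 (adjusted p = 1.85e-04). In the whole type 17 list 27 of 51 members rose and 3 fell, with a median difference of 0.76 against 0.0043 over all genes tested. The call held in each of the 6 fits without 1 array for 21 of the 27 and for none of the 3. The falls other than Nfkbiz were the receptor chains Il6st and Il21r, and Il6st lost its call without any 1 of the 6 arrays, Il21r without any 1 but ROR- 1. The list was drawn up with results of these data known, so its direction is a description.

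Signalling genes close to the antigen receptor went both ways. Clnk, an adaptor related to SLP-76, read 4.31, 5.65 and 3.66 on the ROR- arrays and 8.98, 9.76 and 9.62 on the iNKT17 arrays, and rose by 4.91 ± 0.40 (adjusted p = 1.47e-05). Blk, a Src-family kinase best known from B cells, read 5.21, 7.43 and 5.22 against 10.09, 9.95 and 10.58 and rose by 4.25 ± 0.51 (adjusted p = 2.59e-04). Pram1, an adaptor outside the list, read 4.80, 6.54 and 4.46 against 9.73, 10.13 and 10.31 and rose by 4.79 ± 0.41 (adjusted p = 2.35e-05). All 3 genes read highest on ROR- 2 among the ROR- arrays. Falls included the coreceptor gene Cd4, which read 8.31, 8.47 and 7.82 against 3.96, 4.09 and 3.95, a drop to near the dim level (-4.20 ± 0.15, adjusted p = 6.58e-08). Cd2, an adhesion receptor of T cells, read 9.49, 9.49 and 9.39 against 5.79, 5.27 and 5.25 (-4.02 ± 0.18, adjusted p = 3.57e-07). On these falls ROR- 2 was no closer to the iNKT17 arrays than its neighbours. Themis, a regulator of thymocyte selection, changed by -2.48 ± 0.49 (adjusted p = 0.00895), and the Tec-family kinase Txk by -1.49 ± 0.14 (adjusted p = 4.67e-05). Of 47 members, 8 rose and 10 fell, and 3 and 9 of these kept the call whichever array was left out.

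Type 1 and cytotoxic genes were mostly lower in iNKT17 cells. Tbx21 read 7.52, 8.04 and 6.89 on the ROR- arrays and 4.79, 4.94 and 4.92 on the iNKT17 arrays (-2.60 ± 0.22, adjusted p = 1.97e-05). Ccl5, a chemokine of type 1 and memory cells, read 10.97, 11.04 and 11.04 against 6.18, 5.83 and 6.11 and was 31.4-fold lower (-4.97 ± 0.29, adjusted p = 1.69e-06). Both groups were tight for Ccl5. Ifng read 8.19, 8.82 and 5.54 against 3.29, 4.18 and 3.52 (-3.86 ± 0.73, adjusted p = 0.00701). ROR- 3 thus carried far less of this cytokine transcript than the other ROR- arrays, yet more than any iNKT17 array. Xcl1, the chemokine lymphotactin, read 9.49, 9.72 and 8.59 against 5.06, 4.48 and 4.94 (-4.44 ± 0.54, adjusted p = 3.12e-04). Il12rb2, the chain that makes the interleukin 12 receptor responsive, read 8.72, 8.12 and 8.33 against 4.47, 4.63 and 4.79 (-3.76 ± 0.26, adjusted p = 4.54e-06). Cxcr3, a homing receptor of type 1 cells, stood between 8.27 and 8.30 in ROR- cells and between 5.21 and 5.25 in iNKT17 cells (-3.06 ± 0.19, adjusted p = 2.32e-06). Ly6c2, which encodes a Ly6C antigen, changed by -5.13 ± 0.66 (adjusted p = 4.99e-04), and its iNKT17 mean lay below the dim level.

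Granule genes did not move as one. Nkg7, a cytotoxic granule membrane protein, read 10.15, 9.61 and 9.58 on the ROR- arrays and 5.58, 5.30 and 5.55 on the iNKT17 arrays (-4.30 ± 0.42, adjusted p = 6.17e-05). Gzmb, which encodes granzyme B, was high in both groups at 11.03, 9.86 and 9.79 against 10.30, 11.16 and 10.71, and did not pass (0.50 ± 0.33, adjusted p = 0.501). The pore-forming gene Prf1 read between 5.43 and 5.94 in ROR- cells and between 5.66 and 6.01 in iNKT17 cells (0.08 ± 0.15, adjusted p = 0.834). Gzma, granzyme A, read 7.44, 4.46 and 5.0 against 3.47, 3.11 and 2.58 and passed by little (-2.58 ± 0.70, adjusted p = 0.0498), with an iNKT17 mean of 3.05, below the dim level. That call was lost without ROR- 1 (0.102), ROR- 3 (0.0752) or any 1 iNKT17 array (0.0853 to 0.170). In the list 15 of 38 members fell and 3 rose, with a median difference of -0.38; 14 of the falls and 2 of the rises kept the call whichever array was left out. The rises were Tnf (0.97 ± 0.23, adjusted p = 0.0267), the vesicle transport gene Rab27a (0.84 ± 0.15, adjusted p = 0.00517) and Il12rb1 (1.01 ± 0.20, adjusted p = 0.00895), a chain shared by the interleukin 12 and interleukin 23 receptors. Tnf lost its call without ROR- 1 (0.0831), ROR- 3 (0.101), iNKT17 1 (0.0802) or iNKT17 3 (0.110).

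Promoters of Nkg7 and Samd3 are shown as falls whose windows hold the T-box motif searched for, AGGTGTGA on either strand, in capitals. The site lies 14 bases before the start of Nkg7 and 15 bases before that of Samd3, on the opposite strand. Samd3 itself, a gene of unsettled function, read 7.53, 7.99 and 7.37 in ROR- cells and 3.66, 3.51 and 3.95 in iNKT17 cells (-3.92 ± 0.21, adjusted p = 1.34e-06).
Nkg7 (chr7:43436888-43437137, plus strand): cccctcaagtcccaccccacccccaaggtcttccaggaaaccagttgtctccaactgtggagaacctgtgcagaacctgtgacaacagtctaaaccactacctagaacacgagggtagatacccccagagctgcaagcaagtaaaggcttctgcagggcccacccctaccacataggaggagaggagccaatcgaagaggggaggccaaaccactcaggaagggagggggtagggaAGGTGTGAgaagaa
Samd3 (chr10:26229457-26229706, plus strand): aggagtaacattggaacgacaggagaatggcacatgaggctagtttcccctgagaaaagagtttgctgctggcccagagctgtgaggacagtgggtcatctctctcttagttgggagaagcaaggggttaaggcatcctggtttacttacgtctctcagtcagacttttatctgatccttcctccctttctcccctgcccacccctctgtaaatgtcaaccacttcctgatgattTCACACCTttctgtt
Over all windows, which again run on past the start, 419 of 32851 (1.28%) held this motif. It was found in 3 of the 12 windows of the 15 largest falls (25%), Plac8 being the other gene, and in 2 of 41 windows of the type 1 list (4.88%), those of Nkg7 and of Rab27a, which rose; 10 of the 15 and 32 of the 38 genes had a window. The endoplasmic reticulum stress list held it in 2 of 20 (10%). These shares are descriptions of few windows.

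NK receptor genes gave the steepest drops. Klrd1, which encodes CD94, read 10.06, 10.18 and 10.42 on the ROR- arrays and 3.78, 3.92 and 3.74 on the iNKT17 arrays. Its level was 85-fold lower in iNKT17 cells (-6.41 ± 0.42, adjusted p = 3.27e-06). Klra5, a Ly49-family receptor, read 9.14, 9.26 and 9.22 against 2.96, 2.96 and 2.84 (-6.29 ± 0.23, adjusted p = 6.58e-08), the latter below the dim level on all 3 arrays. Klrk1, the activating receptor NKG2D, read 6.67, 7.36 and 6.47 against 3.30, 3.10 and 3.18 (-3.64 ± 0.20, adjusted p = 1.40e-06). Klrc1, the NKG2A partner of CD94, changed by -3.76 ± 0.24 (adjusted p = 2.92e-06), Slamf7 by -3.24 ± 0.21 (adjusted p = 3.53e-06) and the adaptor gene Fcer1g by -2.98 ± 0.25 (adjusted p = 1.95e-05). The iNKT17 means of Klrk1 (3.19) and Klrc1 (3.44) also lay below the dim level, which leaves the extent of both falls uncertain. In all, 10 of 26 members fell (38.5%) and 2 rose (7.69%), against 2.91% and 4.06% over all genes tested. Of these, 8 and 2 kept the call whichever array was left out. The rises were Klrb1f, a receptor of the NKR-P1 family, from 6.90, 7.37 and 6.73 to 9.09, 8.64 and 9.08 (1.94 ± 0.19, adjusted p = 7.03e-05), and Crtam, an adhesion receptor, from 5.16, 4.99 and 4.42 to 6.90, 6.49 and 7.11 (1.98 ± 0.24, adjusted p = 3.15e-04). Ly49 and NKR-P1 genes have near-identical relatives, so probe sets of 1 member may also read others.

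Genes of the type 2 and early iNKT list fell where they moved. Izumo1r, the folate receptor family gene also called Folr4, read 8.62, 9.06 and 8.14 on the ROR- arrays and 5.41, 5.30 and 5.75 on the iNKT17 arrays (-3.12 ± 0.21, adjusted p = 4.49e-06). Lef1, a transcription factor of early T cells, read 9.37, 9.74 and 9.28 against 6.43, 6.38 and 6.09 (-3.16 ± 0.37, adjusted p = 2.43e-04). Slamf6, a receptor in the selection of iNKT cells, read 8.01, 8.52 and 9.03 against 4.37, 3.68 and 3.93 (-4.52 ± 0.48, adjusted p = 1.13e-04). In each the 3 ROR- arrays stood together above the iNKT17 arrays. Plac8 read 8.89, 8.55 and 8.62 against 3.78, 4.84 and 3.75 (-4.56 ± 0.53, adjusted p = 2.07e-04). Il4 read 8.79, 8.70 and 8.99 against 7.64, 7.69 and 7.39, a smaller change (-1.25 ± 0.17, adjusted p = 6.14e-04). Gata3 read 9.18, 8.88 and 8.53 against 8.53, 8.46 and 8.62 and did not pass (-0.33 ± 0.16, adjusted p = 0.314). Of 30 members 13 fell and none rose, and 10 of the 13 kept the call whichever array was left out.

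Genes that respond to T cell receptor signals showed 11 falls (26.2%) and 1 rise (2.38%) among 42 members, against 2.91% and 4.06% over all genes tested. Myc, the growth regulator, read 10.45, 10.01 and 10.25 on the ROR- arrays and 8.48, 8.64 and 8.18 on the iNKT17 arrays (-1.80 ± 0.20, adjusted p = 1.64e-04). Egr3, an early factor in iNKT development, read 6.61, 6.19 and 5.75 against 5.01, 4.58 and 4.68 (-1.43 ± 0.19, adjusted p = 7.16e-04). Spry2, a feedback inhibitor of kinase signalling, changed by -2.28 ± 0.23 (adjusted p = 7.17e-05) and the inhibitory receptor gene Cd5 by -1.33 ± 0.14 (adjusted p = 9.70e-05). The member that rose was Pdcd1, the gene of the PD-1 receptor. Pdcd1 read 5.19, 4.74 and 5.08 against 7.54, 7.78 and 7.59 (2.63 ± 0.15, adjusted p = 1.40e-06), and ROR- 2 was the lowest of the 6 arrays. Slamf6 stands in this list too.

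Egress and homing genes divided by receptor. S1pr1, which lets lymphocytes leave tissue, read 8.74, 8.92 and 8.25 on the ROR- arrays and 5.30, 4.09 and 5.05 on the iNKT17 arrays (-3.82 ± 0.35, adjusted p = 3.62e-05). Klf2, a factor that drives S1pr1, read 6.90, 8.77 and 6.99 against 6.75, 4.80 and 5.60, and missed the threshold (-1.83 ± 0.51, adjusted p = 0.0535). The groups did not overlap for Klf2, yet ROR- 1 and iNKT17 1 nearly met. Klf3 read 7.17, 7.01 and 6.85 against 4.54, 4.44 and 4.69 (-2.45 ± 0.14, adjusted p = 1.65e-06). Cxcr4, the receptor for CXCL12, read 7.01, 7.96 and 7.29 against 5.60, 4.88 and 5.38 (-2.13 ± 0.28, adjusted p = 5.40e-04). Itgb5, an integrin chain that binds matrix, read 5.60, 6.13 and 5.77 against 8.55, 8.87 and 8.65 and rose by 2.86 ± 0.15 (adjusted p = 1.21e-06). Of 55 members 16 fell (29.1%) and 7 rose (12.7%), against 2.91% and 4.06% over all genes tested. Without iNKT17 3 the counts were 10 and 5.

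Other receptor and ligand genes followed. Among cytokine receptors 12 of 44 fell (27.3%) and 5 rose (11.4%), against 2.91% and 4.06% over all genes tested. The 5 were Il23r, Il1r1, Il17re, Il12rb1 and Il17rc. Il6ra, the interleukin 6 receptor, changed by -2.37 ± 0.31 (adjusted p = 5.23e-04), and Cd27, a co-stimulatory receptor whose absence marks many type 17 T cells, by -3.55 ± 0.42 (adjusted p = 2.56e-04). Cd27 read 9.18, 9.19 and 8.85 on the ROR- arrays and 5.56, 5.44 and 5.58 on the iNKT17 arrays, so every array lay close to its group. Among cytokine and chemokine ligands 7 of 38 rose and 6 fell, and 3 of the rises and all 6 falls kept the call whichever array was left out. The rises numbered 3 without ROR- 3 and 4 without ROR- 2, iNKT17 2 or iNKT17 3. The falls included the death ligand Fasl at -2.62 ± 0.22 (adjusted p = 1.95e-05).

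Interferon-stimulated genes held 10 falls (29.4%) and 1 rise (2.94%) among 34, against 2.91% and 4.06% over all genes tested. Ifitm2, an antiviral membrane protein, read 10.13, 8.0 and 7.39 on the ROR- arrays and 4.46, 4.41 and 3.75 on the iNKT17 arrays (-4.30 ± 0.72, adjusted p = 0.00324). Ifitm3, its neighbour, read 9.32, 7.25 and 7.26 against 4.68, 4.61 and 4.54 (-3.33 ± 0.52, adjusted p = 0.00191). ROR- 1 was the highest array for both genes, and these paralogs are similar in sequence. Ifit2 changed by -1.26 ± 0.19 (adjusted p = 0.00133). The rise was Eif2ak2, the kinase PKR, at 0.47 ± 0.12 (adjusted p = 0.0346), a call lost without ROR- 3 (0.0983) or any 1 iNKT17 array (0.0928 to 0.109). The falls numbered 7 without ROR- 3 and 6 without iNKT17 1 or iNKT17 3, with no rise in any of these fits.

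**Figure D2:**
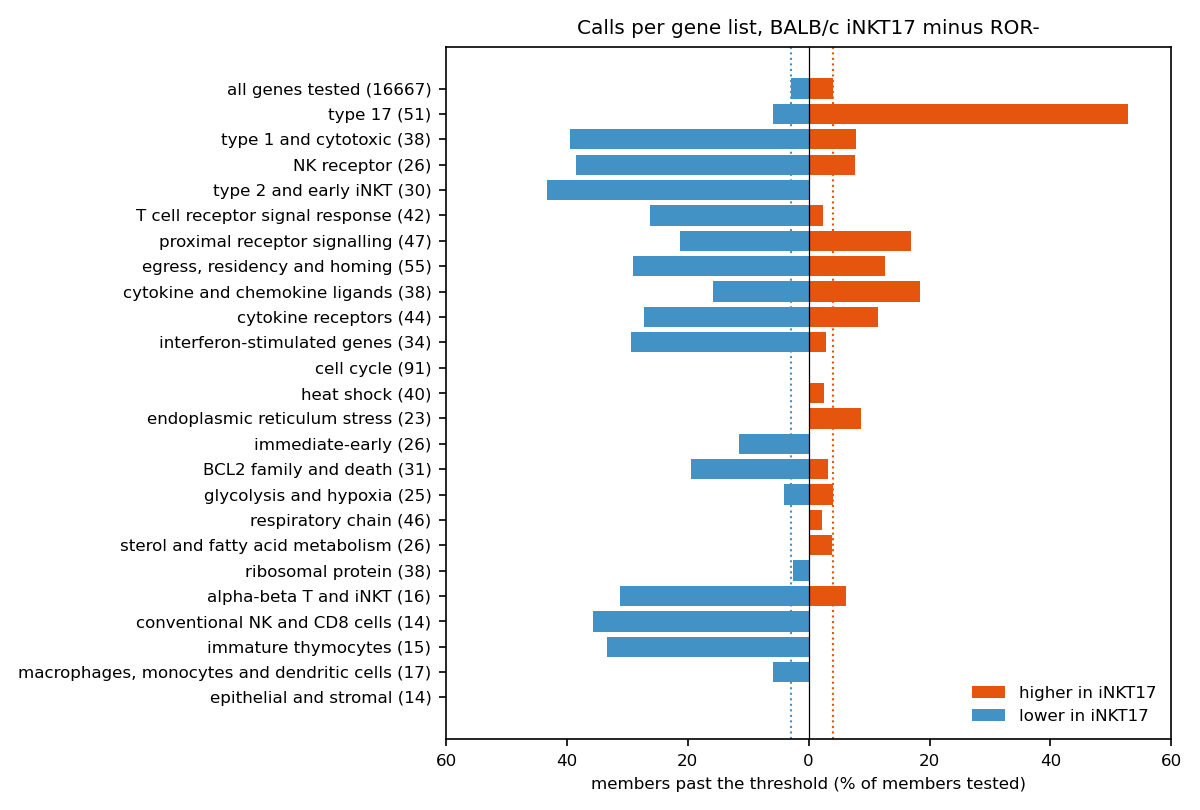
Share of the tested members of each list (percent, horizontal axis; lists with at least 14 members tested, number in brackets) that were higher (orange, to the right) or lower (blue, to the left) in BALB/c iNKT17 cells at an adjusted p under 0.05. Dotted lines mark the shares over all 16667 genes, 4.06% higher and 2.91% lower; the type 17 list reaches 27 of 51 on the right, and the cell cycle list and the epithelial and stromal list have no bar.

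Several of the largest rises belong to no list. Abi3bp, an extracellular matrix-binding protein, read 4.03, 6.38 and 3.94 on the ROR- arrays and 9.72, 9.23 and 9.59 on the iNKT17 arrays (4.73 ± 0.50, adjusted p = 1.16e-04). Slc15a3, a lysosomal transporter of peptides and histidine, read 3.98, 5.26 and 4.34 against 8.82, 9.08 and 9.01 (4.44 ± 0.26, adjusted p = 1.73e-06). Stab2, a scavenger receptor for hyaluronan, read 4.93, 6.19 and 5.08 against 9.26, 9.08 and 9.77 (3.97 ± 0.29, adjusted p = 7.06e-06). All 3 had ROR- 2 as the highest ROR- array and no overlap between groups. Hmga2-ps1, Cdh10, Rasgef1b and Zp1 rose by 3.77, 3.51, 3.51 and 3.39; the ROR- mean of Cdh10 lay below the dim level, and the pseudogene Hmga2-ps1 is uncertain, since its probe sets were not checked against Hmga2. On the other side Ms4a4b, a T cell membrane protein, read 7.28, 7.34 and 7.12 against 2.62, 2.80 and 2.65 (-4.56 ± 0.25, adjusted p = 1.40e-06), the latter below the dim level.

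The array ROR- 2 stood nearer to iNKT17 cells on genes that are high there. Its place was measured on genes at least 4-fold apart in a fit made without that array, as its distance from the mean of the other ROR- arrays divided by the distance from that mean to the iNKT17 mean. Over 72 genes higher in iNKT17 cells the median place of ROR- 2 was 0.1987 on the log2 scale, where 0 is its own group and 1 the other, and 68 of the 72 lay on the iNKT17 side (94.4%). Turned to the linear scale, the median was 6.66% of the way. For genes higher in iNKT17 cells ROR- 1 and ROR- 3 had linear medians of -1.27% and -2.42%, so ROR- 2 was the highest of its group. The iNKT17 arrays, whose place is counted toward ROR-, ran from -16.2% to 13.5% on these genes. In the other 5 arrays 23% to 74.3% of such genes lay toward the other group, the most on iNKT17 1. For genes lower in iNKT17 cells the linear medians of the other 5 arrays ran from -2.36% to 19.7%. The 19.7% was that of ROR- 3, with 54 of 73 such genes on the iNKT17 side (74%). Over 75 genes lower in iNKT17 cells the median place of ROR- 2 was 0.0005, with 38 of 75 on the iNKT17 side. On the log2 scale the other 5 arrays had medians between -0.0866 and 0.0908 in either direction. On that scale ROR- 2 thus read higher on genes that are high in iNKT17 cells and not lower on those that are high in ROR- cells. Part of this place reflects low readings on ROR- 3. On Mpc1 (6.04, 6.35 and 3.48) and Asb2 (7.55, 7.62 and 6.68) ROR- 2 lay near ROR- 1, above a low ROR- 3. On Il23r (3.05, 7.0 and 3.37) it stood well above both. In the fit with array weights ROR- 3 had the lowest weight of all arrays (0.4051, against 1.0972 for ROR- 2). A single array cannot be tested against its own group.

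Single genes differed in how far they went. On the linear scale Il22 on ROR- 2 lay 17.9% of the way to the iNKT17 mean, Blk 11.8%, Il23r 10.7%, Abi3bp 9.43%, Il1r1 8.66% and Slc15a3 4.21%. Some genes showed no such gain: Ccr6, Pdcd1 and Il17a read 4.26, 4.74 and 3.79 on ROR- 2, all within 0.5 of both other ROR- arrays. Gja1, which encodes the gap junction protein connexin 43, read 4.0, 3.95 and 4.13 on the ROR- arrays and 6.08, 8.16 and 7.35 on the iNKT17 arrays, again with no gain on ROR- 2. Leaving out ROR- 2 must enlarge the difference of a gene that it raised, so the larger sizes add no separate evidence. They were 6.93 for Il23r, 6.02 for Il22, 5.53 for Abi3bp and 5.01 for Il1r1. In that fit 1008 genes passed, 581 higher and 427 lower; 884 of the 1161 passed in both, 277 passed with ROR- 2 alone and 124 without it alone.

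**Figure D3:**
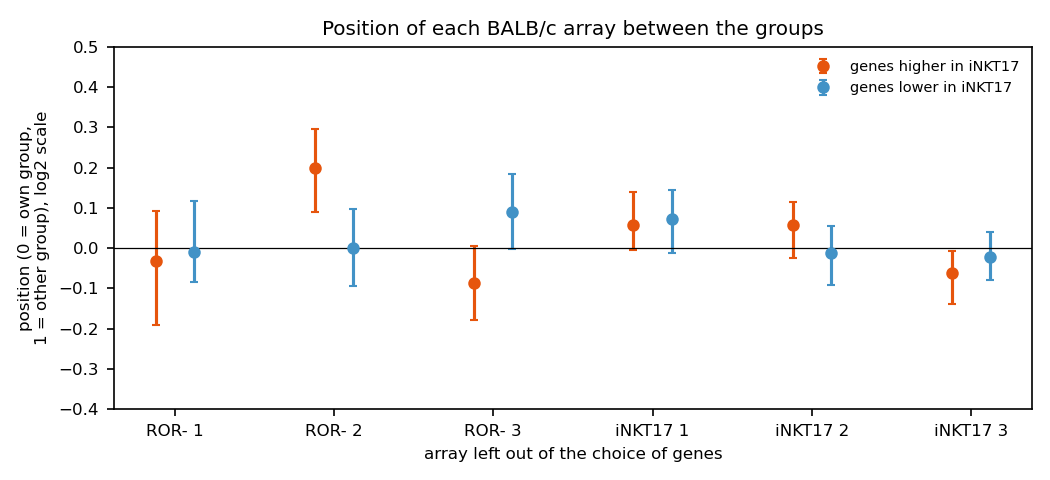
Place of each of the 6 BALB/c arrays between its own group (0) and the other group (1) on the log2 scale, with points at the median and bars from the lower to the upper quartile over genes at least 4-fold apart in a fit without that array. For genes higher in iNKT17 cells (orange) ROR- 2 has a median of 0.1987; every other point lies between -0.0866 and 0.0908.

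Immediate-early genes and a few heat shock genes were also high on ROR- 2, and also on iNKT17 1. Hspa1b, an inducible HSP70 gene, read 8.12, 11.31 and 4.93 on the ROR- arrays and 10.86, 7.81 and 4.62 on the iNKT17 arrays. Hspa1a read 8.33, 10.73 and 3.95 against 10.34, 7.50 and 3.55; the pair is near-identical in sequence, so their values are not independent. The levels form 3 tiers, each with 1 array of either group: ROR- 2 with iNKT17 1 at the top, ROR- 1 with iNKT17 2, and ROR- 3 with iNKT17 3 at the bottom. The group differences were -0.36 ± 1.56 for Hspa1b (adjusted p = 0.937) and -0.54 ± 1.68 for Hspa1a (adjusted p = 0.909), intervals so wide that no group difference of this kind could be read. Hsph1, an HSP110 chaperone, read 7.34, 8.65 and 6.82 against 7.79, 7.61 and 7.26. Dnajb1, the HSP40 partner, read 6.50, 7.63 and 6.13 against 6.93, 6.33 and 6.53, also highest on ROR- 2. The constitutive chaperone Hspa8 stood between 12.21 and 12.36 on all 6 arrays. Only 4 of 40 heat shock genes were at least 2-fold above the other ROR- arrays on ROR- 2, and 2 were on iNKT17 1. Over all 16667 genes tested the counts were 80 and 41. The median gap of the heat shock list was 0.11 on ROR- 2 and -0.29 on ROR- 3. It was 0.08 on iNKT17 1 and 0.07 on iNKT17 2. In the test between groups 1 of 40 passed, Hsf2 (0.59 ± 0.13, adjusted p = 0.0171), which lost its call without ROR- 2 (0.0505), ROR- 3 (0.0616), iNKT17 1 (0.0705) or iNKT17 2 (0.0604).

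Immediate-early genes are transcribed within minutes of a stimulus or of handling. Fosb read 7.30, 9.37 and 6.48 on the ROR- arrays and 8.43, 6.11 and 6.54 on the iNKT17 arrays. Fos read 6.97, 8.67 and 6.01 against 8.26, 5.79 and 6.36, and Jun 8.78, 10.75 and 8.89 against 10.50, 8.32 and 8.89. For all 3 the top array of each group was ROR- 2 and iNKT17 1, and the groups overlapped. The mean of the 26 genes was 8.02, 8.90 and 7.74 in ROR- cells and 8.37, 7.46 and 7.62 in iNKT17 cells. On ROR- 2 11 of 26 were at least 2-fold above the other arrays of the group, and on iNKT17 1 8 were, against 80 and 41 of all 16667 genes tested. Ier3, a stress and NF-kappa-B target, differed between groups all the same, at 7.33, 7.84 and 7.36 against 6.0, 5.66 and 5.42 (-1.82 ± 0.26, adjusted p = 9.76e-04). In all 3 members fell (Ier3, Egr2 and Nfkbiz) and none rose, and Ier3 alone kept the call whichever array was left out. Type 17 genes were raised on ROR- 2 together with these stress genes, and whether the 2 patterns share a source was not tested.

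**Figure D4:**
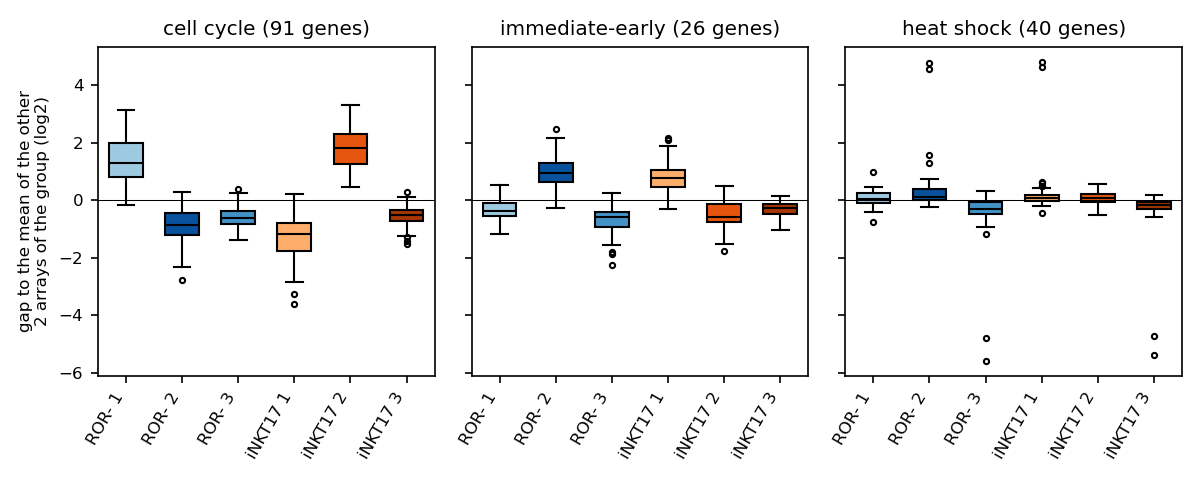
Gap of each BALB/c array to the mean of the other 2 arrays of its group (log2, vertical axis) over the tested genes of the cell cycle, immediate-early and heat shock lists; boxes span the quartiles with the median as a line, whiskers reach 1.5 times the box and points lie beyond. ROR- 1 and iNKT17 2 stand high for cell cycle genes, and ROR- 2 and iNKT17 1 for immediate-early genes.

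Cell cycle genes varied more inside the groups than between them. Mki67, the proliferation marker Ki-67, read 8.99, 6.51 and 7.14 on the ROR- arrays and 7.14, 9.65 and 8.09 on the iNKT17 arrays (0.74 ± 0.65, adjusted p = 0.631). Top2a, a topoisomerase of dividing cells, read 8.73, 6.01 and 6.26 against 6.21, 9.21 and 7.33 (0.58 ± 0.76, adjusted p = 0.769). Ccna2, cyclin A2, read 8.35, 4.71 and 5.69 against 4.71, 9.02 and 6.94 (0.64 ± 1.0, adjusted p = 0.811). ROR- 1 and iNKT17 2 were the high arrays for each of them, and the groups overlapped. Birc5, the mitotic protein survivin, spanned 4.39 to 7.46 in ROR- cells and 3.47 to 8.07 in iNKT17 cells. The mean over 91 cell cycle genes was 6.50, 4.98 and 5.18 on the ROR- arrays and 5.10, 7.17 and 5.61 on the iNKT17 arrays. On ROR- 1 60 of the 91 were at least 2-fold above the other arrays of the group, and on iNKT17 2 79 were. Over all 16667 genes tested the counts were 222 and 231.

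The spread set what the test could show for these genes. Their median SD within a group was 0.77 in ROR- cells and 1.10 in iNKT17 cells, against 0.18 and 0.14 over all genes tested. All 91 had a within-group SD above the upper quartile of all genes. None passed limma's threshold, 1 had an unadjusted p under 0.05, and the lowest adjusted p was 0.173. The median difference was 0.43, with 81 of the 91 above 0, against 8475 of 16667 over all genes tested. These genes moved together, so the 81 are not separate observations. Their mean was 7.17 on iNKT17 2 but 5.10 on iNKT17 1 and 5.61 on iNKT17 3, both below ROR- 1 (6.50). Cdk1, the main mitotic kinase, read 7.27, 4.73 and 5.0 against 5.74, 8.45 and 6.44 and did not pass (1.21 ± 0.73, adjusted p = 0.440). The Cdk1 promoter is shown as an example of the cell cycle homology region, TTTGAA on either strand, in capitals 71 and 15 bases before the start.
Cdk1 (chr10:69352913-69353162, minus strand): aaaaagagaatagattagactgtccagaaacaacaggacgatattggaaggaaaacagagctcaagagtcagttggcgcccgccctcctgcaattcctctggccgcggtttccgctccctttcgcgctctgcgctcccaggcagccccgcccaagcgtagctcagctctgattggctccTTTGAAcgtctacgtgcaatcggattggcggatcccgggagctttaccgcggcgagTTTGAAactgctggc
Windows were found for 74 of the 91 cell cycle genes, and TTTGAA in 40 of the 86 windows (46.5%), against 17.9% over all windows. The windows counted run on past the start. Some of the matches counted, as in Plk1, Aurka and Ttk, do not lie wholly before it. The CCAAT box was in 59 of 86 (68.6%), against 37.4%. In the other lists searched it ran from 19 of 59 type 17 windows (32.2%) to 18 of 20 endoplasmic reticulum stress windows (90%). These letters are short and frequent, and a match does not show use.

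**Figure D5:**
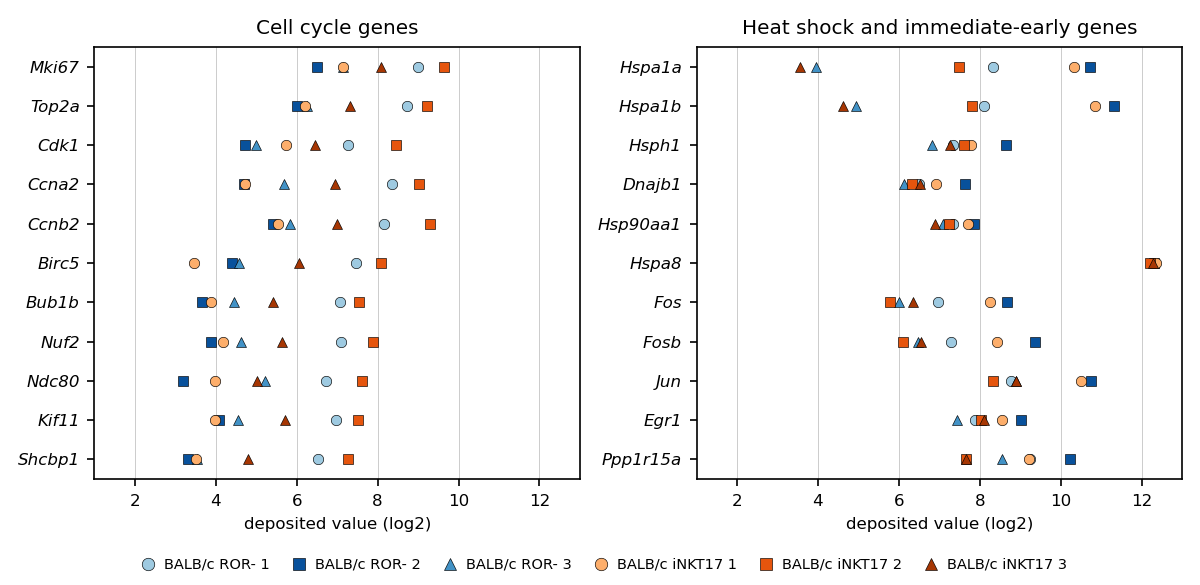
Deposited values (log2, horizontal axis) of cell cycle genes (left) and of heat shock and immediate-early genes (right), 1 point per BALB/c array, ROR- in blue and iNKT17 in orange. On the left the light blue circles of ROR- 1 and the orange squares of iNKT17 2 lie to the right; on the right the dark blue squares of ROR- 2 and the light orange circles of iNKT17 1 do, except for Hspa8, which is level on all arrays.

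Stress and metabolic lists held 1 or 2 calls each, from 2.17% to 8.7% of their members, against 6.97% over all genes tested. Atf6, a sensor of unfolded proteins in the endoplasmic reticulum, read 7.40, 7.53 and 7.60 on the ROR- arrays and 8.56, 8.51 and 8.52 on the iNKT17 arrays and rose by 1.02 ± 0.10 (adjusted p = 6.29e-05); it was 1 of 2 rises among 23 genes of that list, with Hsp90b1, whose call was lost without any 1 array but ROR- 1 (0.0586 to 0.170). Epas1, which encodes the hypoxia factor HIF-2-alpha, read 5.21, 5.30 and 5.13 against 6.83, 6.32 and 6.38 (1.30 ± 0.15, adjusted p = 1.86e-04). It was the rise among 25 glycolysis and hypoxia genes, and the fall, Car12, lost its call without ROR- 1 (0.0588), ROR- 3 (0.0941), iNKT17 1 (0.0874) or iNKT17 3 (0.101). Of 46 respiratory chain genes 1 passed, Ndufa4, a call lost without ROR- 2 (0.0514), ROR- 3 (0.0578) or iNKT17 2 (0.0810). In that list 43 differences were above 0 with a median of 0.18, against 8475 of 16667 and 0.0043 over all genes tested. Among 38 ribosomal protein genes 1 fell, Rps19, and it lost the call without iNKT17 2 (0.0528). Of 26 sterol and fatty acid genes 1 rose, the lipid droplet gene Plin2 (1.46 ± 0.32, adjusted p = 0.0168), a call lost without ROR- 3 (0.0752), iNKT17 2 (0.0512) or iNKT17 3 (0.0666). More calls came from the BCL2 family and cell death list, where 6 of 31 fell and Bik rose, a call lost without ROR- 1 (0.0742), ROR- 3 (0.102) or iNKT17 3 (0.124). Bcl2l11, the death inducer BIM, changed by -0.64 ± 0.11 (adjusted p = 0.00305). Bcl2 read 10.22, 9.22 and 9.37 against 8.34, 9.46 and 8.53, with overlapping groups, and did not pass (-0.83 ± 0.29, adjusted p = 0.137).

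Markers of other cells that a sort could carry were read in the same fit, in which 4.06% of all genes tested rose and 2.91% fell. Gamma-delta T cell genes rose in 5 of 6 (Blk, Maf, 5830411N06Rik, Cd163l1 and Sox13), and 3 of the 5 kept the call whichever array was left out. The list's summed linear level was 1027, 1421 and 603 on the ROR- arrays and 4036, 3973 and 4923 on the iNKT17 arrays; most members are also type 17 genes, and the constant chain gene Trdc is not analysed here. Genes of conventional NK and CD8 cells fell in 5 of 14 and rose in none, 3 of the 5 in all fits, with summed levels from 1502 to 2869 and from 1625 to 2648. The defining gene Eomes read 4.19, 4.03 and 3.83 against 3.04, 2.98 and 3.04, a faint signal that fell below the dim level. Genes of immature thymocytes fell in 5 of 15, 3 of them in all fits, with summed levels from 1698 to 2108 against 894 to 1098. Of 17 genes of macrophages, monocytes and dendritic cells 1 fell, Fcgr3 (-1.25 ± 0.18, adjusted p = 0.00108), with Lyz2 and H2-Aa below the dim level in both groups and summed levels from 3096 to 3245 against 3410 to 4105. Of 5 B cell genes 1 rose, Cd79b (1.85 ± 0.24, adjusted p = 4.90e-04), while its partner Cd79a read between 4.03 and 4.49 on all 6 arrays. No neutrophil, erythroid, mast cell or epithelial gene passed limma's threshold among 9, 2, 3 and 14, and 0, 0, 0 and 2 had an unadjusted p under 0.05. Genes of alpha-beta T and iNKT cells fell in 5 of 16 (Cd4, Cd5, Themis, Trat1 and Slamf6) and rose in 1, Slamf1, which lost its call without any 1 array but iNKT17 2 (0.0588 to 0.168). The shared receptor chain gene Cd3e read between 11.30 and 11.75 on all 6 arrays. The part of any of these cells in the differences above was not tested.

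The same comparison in B6 mice showed where the BALB/c result differed. Of the 1161 genes that passed in BALB/c, 678 (58.4%) passed in B6 in the same direction and none in the opposite one. The share of all genes tested that passed in B6 is not given here. Both differences came from 1 fit with a shared estimate of spread per gene, so the overlap is not an independent repeat. The strain difference itself, tested in the same model, passed for 14 of 16667 genes (0.084%), 7 of them among the 1161 (0.603%), and 669 genes had an unadjusted p under 0.05. Mmp14, a membrane metalloprotease, read 4.35, 4.59 and 4.59 in BALB/c ROR- cells and 6.41, 6.41 and 6.42 in BALB/c iNKT17 cells, a rise of 1.90 ± 0.11 (adjusted p = 1.40e-06). Its B6 difference was 0.37, and the strain difference of 1.53 ± 0.17 (adjusted p = 0.0111) kept its call whichever BALB/c array was left out. It was 1 of 7 such genes, and the other 6 lost that call when single arrays were left out. Cd2 fell further in BALB/c than in B6, by 1.91 ± 0.29 on the log2 scale (adjusted p = 0.0447).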

How the data were processed

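The series holds 12 arrays of 5 groups, and the 6 BALB/c arrays are the subject. The values are deposited log2 expression values per probe set, made with oligo per the submitters' processing notes; its version, the background correction and the normalization are not given in those notes or in the labels, and the log base was read from the range of the values. No scanner files were used. Of 41345 probe sets, 23521 carried 1 gene symbol, 1814 several and 16010 none in the platform annotation; the brightest probe set by its mean over 12 arrays stood for each of 22180 genes. Genes above a dim level of 3.45 (the 30th percentile) on at least 2 arrays were tested, 16667 in all, and 5513 were set aside. A group-means model was fitted to all 12 arrays with limma 3.58.1 in R 4.3.3 (7 residual and 4.50 prior degrees of freedom), and the BALB/c contrast and its strain difference were adjusted by Benjamini-Hochberg at 0.05. The number of arrays limits the precision. The members and the 29 lists were chosen with earlier results of these data known.

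Named genes were the 15 largest rises and falls past the threshold, at least 2-fold and without overlap (predicted, clone-named and olfactory receptor genes left out), up to 6 called members per list, a set of anchor genes, and genes that stood out on ROR- 2 or by spread within groups. Csf2, Ahr, Runx1, Nr1d1, Rora, Il6st, Il21r, Gzmb, Prf1, Tnf, Rab27a, Il12rb1, Il17rc, Klrb1f, Crtam, Jun, Eif2ak2, Bcl2l11, Gja1, Lyz2, H2-Aa, Cd79a and Cd3e were named after their values were seen. Promoter windows came from RefSeq (GRCm38.p6) and ran on past the annotated start, while the printed sequences stop before it. On simulated data for this contrast over 16667 genes, limma recovered 78% of changes of 1 log2 unit and 98% of changes of 2 log2 units, with 7 false calls. The simulated noise was independent between genes and arrays. Shifts that many genes share on 1 array, as for the cell cycle list, were left out, and these figures do not cover them.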

Additional observations from a re-analysis of the deposited data

Results flagged for a closer look

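The cell-type difference differed between strains for 7 genes called in BALB/c, by limma's test of the difference between BALB/c and B6 (iNKT17 minus ROR-, BALB/c minus B6, adjusted p from 0.0111 to 0.0458). The value was 1.53 for Mmp14, whose call held whichever BALB/c array was left out. It was 1.88 for BC064078, where the BALB/c difference was 2.30 and the B6 difference 0.42, and 1.52 for Epas1, at 1.30 in BALB/c and -0.23 in B6. Cxcl3, a neutrophil-attracting chemokine, gave -3.15, with 1.87 in BALB/c and 5.02 in B6, and its BALB/c ROR- mean lay below the dim level. Gimap4, a GTPase of lymphocyte survival, gave 2.05, with -0.68 in BALB/c and -2.73 in B6, and its BALB/c call was lost without any 1 of the 6 arrays (adjusted p from 0.0517 to 0.165). Ifit1bl1, an interferon-stimulated gene, gave 1.62, with -2.12 in BALB/c and -3.75 in B6; its BALB/c iNKT17 mean lay below the dim level. Cd2 gave -1.91, with -4.02 in BALB/c and -2.11 in B6. Over all genes 14 passed this test, and leaving out single BALB/c arrays gave 4 to 15.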

How the results depend on the processing

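The count of 1161 genes ran from 742 to 1142 when 1 array was left out, the lowest without iNKT17 3. It was 923 with the 6 BALB/c arrays alone, 1098 with each array centred on its median and 1105 with the replicate block, which left 474 of the 478 genes at least 2-fold apart by count. The numbers did not pair the arrays: deviations of same-numbered arrays from their group means correlated at -0.46, -0.34 and 0.14. ROR- 3 alone correlated best with its own number. ROR- 1 correlated best with iNKT17 2 (0.52) and ROR- 2 with iNKT17 1 (0.37). No label pairs these arrays, and a block built on these values was not fitted, so the model took the arrays as unpaired. Covariates chosen after seeing the data gave 1315 (cell cycle mean) and 1571 (with the immediate-early mean). Centring also moved the split of the 3703 genes without overlap between arrays (22.2%) from 2021 higher and 1682 lower to 2431 and 1324. The 14 strain differences became 9 with centring, 3 with a stricter filter on dim genes and 4 to 15 when 1 array was left out. The median place of ROR- 2 was 0.1918 with centring and 0.2832 over genes at least 8-fold apart. Of 101 named genes called, 78 kept direction and call under every alternative run, and over 2274 pairs of gene and alternative none reversed, 134 lost and 18 gained a call. Klf2 gained one with quantile normalization (adjusted p = 0.0498), a stricter filter (0.0489) or array weights (0.0390), and Il17a lost it with array weights (0.0777). The cause was not tested.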
